A study of Homo sapiens with 20 samples.

Results

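HL60 is a promyelocytic leukemia cell line that matures towards neutrophil-like cells when it is treated with all-trans retinoic acid (ATRA), and the question addressed here was which genes answered ATRA differently in cells lacking hexokinase 3 (HK3) than in control cells. For each gene, an interaction was taken as the ATRA minus DMSO difference in HK3-null cells minus the same difference in Cas9 control cells, on the log2 scale of the deposited scaled counts. All genes with a mean scaled count of 50 or more in at least 1 group were included, which gave 11252 of the 28051 named genes. At the edge of that filter, PWAR5 and ST7-AS1 entered with a highest group mean of 50, whereas CDK18 and FAM127A stayed out at 49.7. The 12 RNAseq libraries formed 4 groups of 3: Cas9 control or HK3-null cells, each kept for 36 h in 1 µM ATRA or in 0.01% DMSO, the solvent. The series also holds 8 ATACseq libraries of the same groups, with 2 in each, which are used near the end.

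The knockout was made with a lentiviral vector that carries Cas9, and the control cells express Cas9 as well. Knockout lines were grown from single cells by limiting dilution, and every HK3-null library has the same knockout label, KO-2G, so effects of losing HK3 and of the history of that line cannot be told apart. The libraries are described by the study as biological replicates. A CRISPR cut can abolish a protein while its mRNA remains, so the HK3 mRNA level does not check the knockout labels. HK3 scaled counts were 90, 65 and 105 in Cas9 control DMSO, 1305, 1298 and 1850 in Cas9 control ATRA, 344, 302 and 346 in HK3-null DMSO and 1384, 1285 and 1975 in HK3-null ATRA. HK3 mRNA was therefore present in every library, and its ATRA rise was smaller in HK3-null cells, as described further on.

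ATRA binds retinoic acid receptors, which sit on DNA with RXR partners and switch from repression to activation of their target genes. In promyelocytic cells the direct targets, such as TGM2 and CD38, are followed by myeloid transcription factors, surface integrins, the phagocyte NADPH oxidase and secretory granule proteins, while MYC and its ribosome-building program are turned down. HK3 is a myeloid hexokinase, the enzyme type that phosphorylates glucose in the first step of glycolysis, and its own gene is induced in this maturation. Cells leaving the immature state also rebalance BCL2, which holds back mitochondrial cell death, against BH3-only proteins such as BMF and PMAIP1 (NOXA), which counter it.

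Scaled counts summed to 29053838 to 31548189 per library after the authors' scaling, so the raw depth is not known from these sums. Cas9 control DMSO replicate 1 had 16750 genes above 0, and the other 11 libraries had 15031 to 15801. The promyelocyte granule gene MPO lay between 440811 and 661371 scaled counts in the 12 libraries, and ELANE, PRTN3, AZU1 and CTSG were likewise detected in all of them. Of 22 erythroid and megakaryocyte markers, 20 stayed under a mean of 50 in every group and 8, HBA1 and PF4 among them, were at 0 throughout. Of 21 T and B cell markers, 16 stayed under a mean of 50 in every group and 2, CD5 and MS4A1, were at 0 throughout. The 21 summed to 7718 to 8621 scaled counts in Cas9 control DMSO and 11347 to 12601 in Cas9 control ATRA. In HK3-null cells the sums were 8164 to 8321 in DMSO and 13730 to 14063 in ATRA. Of 20 monocyte and macrophage markers, 11 stayed under a mean of 50 and 2, C1QB and C1QC, were at 0 throughout.

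The ATRA response differed between the genotypes in 685 genes, or 6.09% of those tested, by limma's moderated test with a Benjamini-Hochberg adjusted p under 0.05 and an interaction of at least 1.5-fold in either direction. The interaction was positive, meaning a more upward response in HK3-null cells, in 317 genes (2.82%) and negative in 368 (3.27%). The median interaction of all genes tested was -0.014 on the log2 scale. Genes were classed by the responses within each genotype that passed at an adjusted p under 0.05. A larger rise (229 of the 685 genes) or a larger fall (225) means that the response passed in HK3-null cells in the direction of the interaction. It passed in the Cas9 control as well in 145 and 131 of them. A smaller rise (115 genes) or a smaller fall (55) means that the response passed in the control against the direction of the interaction. It passed in HK3-null cells as well in 78 and 13 of them. In the 59 reversed genes both responses passed with opposite signs: 33 rose in HK3-null cells while they fell in the Cas9 control, and 26 did the reverse. The 2 remaining genes passed in neither genotype. Leaving out each library in turn kept 476 of the 685 calls in all 12 fits.

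**Figure D1:**
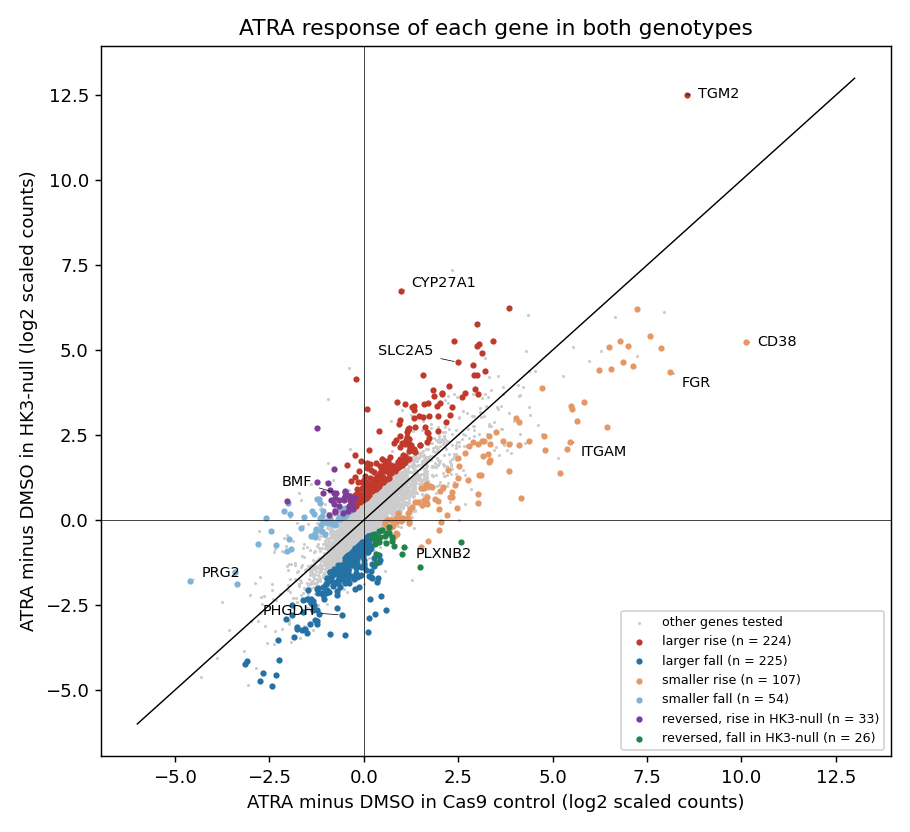
Log2 ATRA response of every gene tested without a library at 0, in Cas9 control (x axis) and in HK3-null cells (y axis), with the diagonal of equal responses and colors for the 6 classes of called interactions. Red and dark blue genes passed in HK3-null cells and lie away from the diagonal on its upper and lower side, orange genes rose in the control and lie below the diagonal, and the purple and green genes lie in the quadrants of opposite response.

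Genes with a smaller rise in HK3-null cells mostly started from a higher level there. In DMSO, 92 of these 115 genes (80.0%) were at least 2-fold higher in HK3-null than in Cas9 control cells, against 1244 of all 11252 genes tested (11.1%). Their median scaled count rose from 50 to 408 in the Cas9 control and from 323 to 957 in HK3-null cells, and 91 of the 115 ended higher in HK3-null cells. The DMSO libraries enter both the starting level and the response, so a high start lowers the fitted rise by construction and no relation between them was tested. In scaled counts rather than log2, 49 of the 115 genes gained less in HK3-null cells than in the Cas9 control.

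In the other classes the share that began at least 2-fold higher in HK3-null cells was 9.17% for a larger rise, 17.3% for a larger fall, 30.9% for a smaller fall, and 18.2% and 42.3% for the reversed genes that rose and fell in HK3-null cells. Genes with a larger rise had a median DMSO level of 511 in Cas9 control and 499.7 in HK3-null cells, and 51 of the 229 (22.3%) began at least 2-fold lower in HK3-null cells, against 16.9% of genes with a larger fall and 7.64% of all genes tested. Genes with a larger fall started at medians of 596 and 556 and ended in ATRA at 421 and 193. Genes with a smaller fall began at 471 and 672, and 50 of the 55 were higher in HK3-null than in Cas9 control cells after ATRA. In scaled counts, the difference of the ATRA changes kept its log2 direction in 212 of 229 genes with a larger rise, 184 of 225 with a larger fall, 49 of 55 with a smaller fall and all 59 reversed genes.

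**Figure D2:**
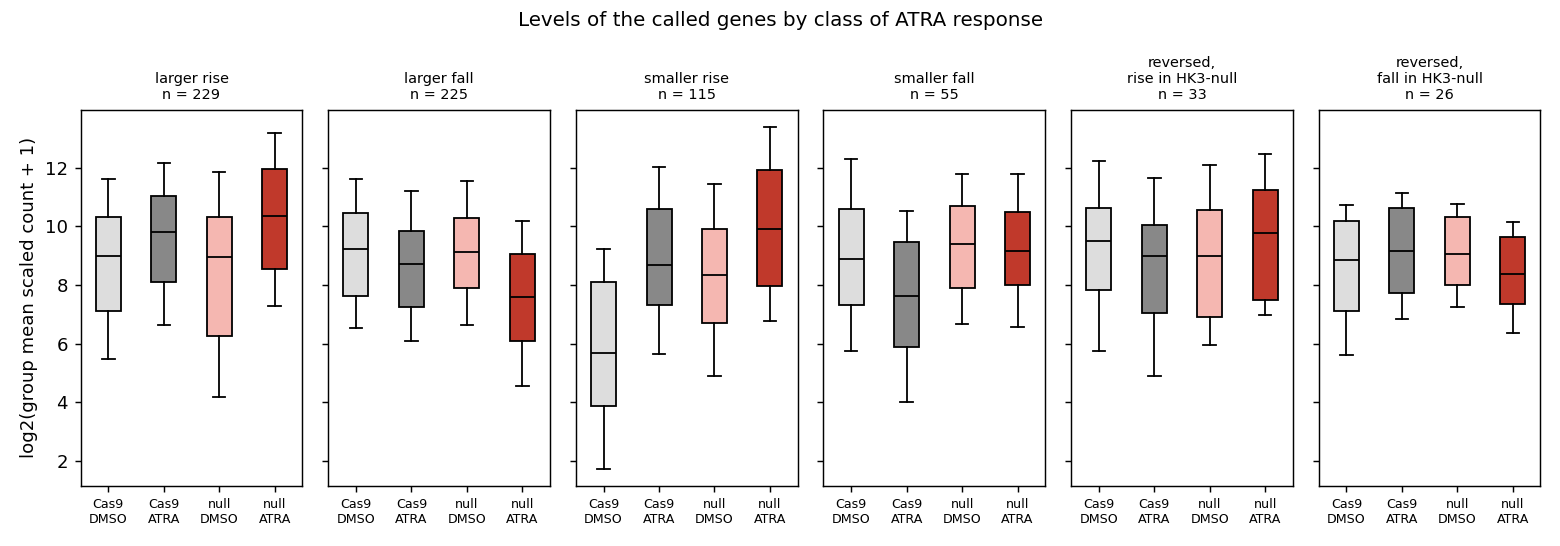
Group mean scaled counts, as log2(mean + 1), of the called genes in each class, with boxes from the 25th to the 75th percentile, a line at the median and whiskers from the 10th to the 90th percentile. Genes with a smaller rise start low in Cas9 control DMSO, at a median of 50, and at 323 in HK3-null DMSO.

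ITGAM had a smaller rise in HK3-null cells. It encodes CD11b, the integrin chain used as the surface marker of this maturation. Its scaled counts were 23, 27 and 27 in Cas9 control DMSO, 1073, 1040 and 1289 in Cas9 control ATRA, 372, 355 and 322 in HK3-null DMSO and 1791, 1510 and 1915 in HK3-null ATRA. No library of one group overlapped another group. ITGAM rose by 5.46 log2 units in the Cas9 control and by 2.31 in HK3-null cells, and the interaction was -3.15 ± 0.17 (SE, 3 libraries per group, as for every interaction below, adjusted p = 7.60e-07 by limma). RefSeq places the gene at chr16:31259975-31332877 on GRCh38. In scaled counts the gain was larger in HK3-null cells, at 1389 against 1108.

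The largest interaction among smaller-rise genes with counts in every library was that of CD38, an ecto-enzyme that consumes NAD and a direct ATRA target. CD38 stood at 5, 6 and 4 in Cas9 control DMSO, 6157, 5181 and 5190 in Cas9 control ATRA, 197, 202 and 175 in HK3-null DMSO and 7982, 6844 and 6708 in HK3-null ATRA. All 3 DMSO libraries of the Cas9 control held 6 scaled counts or fewer, and every HK3-null ATRA library lay above every control ATRA library, with a difference of 0.38 log2 units in ATRA (adjusted p = 0.0324 by limma). The interaction of CD38 was -4.89 ± 0.20 (adjusted p = 1.66e-07), with a rise of 10.12 log2 units in the control and 5.23 in HK3-null cells. FGR, a SRC-family kinase of myeloid cells, stood at 48, 46 and 36 in Cas9 control DMSO, 11122, 11773 and 13015 in Cas9 control ATRA, 1241, 1080 and 1214 in HK3-null DMSO and 23270, 23046 and 25482 in HK3-null ATRA. Its ATRA level was higher in every HK3-null library, yet the interaction was -3.77 ± 0.15 (adjusted p = 1.66e-07).

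Other receptors and adhesion genes of the class shared the low start in the control. The ADP receptor gene P2RY13 went from 2 ± 1 to 159 ± 18.5 in the Cas9 control and from 38.3 ± 1.53 to 255 ± 27.1 in HK3-null cells (mean scaled count ± SD, n = 3), with an interaction of -3.72 ± 0.46 (adjusted p = 0.000376). ITGAX, the CD11c integrin chain, went from 3.67 ± 1.15 to 154 ± 51.96 and from 161 ± 26.5 to 688 ± 139, and its interaction was -3.29 ± 0.39. ICAM1, a ligand of leukocyte integrins, rose from 3 ± 2 to 585 ± 63.7 and from 73.7 ± 23.7 to 2413 ± 536, with an interaction of -2.83 ± 0.65 (adjusted p = 0.0166) that rested on 3 counts at the start, shrank to -0.86 with 8 added to the scaled counts and lost its call in 2 of 19 alternatives. Of 17 integrin and adhesion genes tested, 4 had a called interaction and all 4 were negative, as were 3.27% of all genes tested, ITGB7 being the fourth. The long antisense transcript TFAP2A-AS1, which overlaps its partner's locus, went from 2.33 ± 0.577 to 41.7 ± 9.02 and from 118 ± 19.3 to 183 ± 21.7. The monocyte growth factor receptor CSF1R rose from 40 ± 9 to 326 ± 82.9 in the control and stood at 111 ± 1.53 to 162 ± 58.4 in HK3-null cells. CSF1R thus ended lower in HK3-null cells under ATRA, unlike ITGAM, CD38 and FGR.

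The NADPH oxidase, which makes superoxide in phagocytes, had 3 called genes among 10 tested, all negative, beside 3.27% negative among all genes tested. CYBB, its membrane catalytic subunit, stood at 241, 251 and 180 in Cas9 control DMSO, 6412, 5871 and 5973 in Cas9 control ATRA, 8433, 8696 and 7412 in HK3-null DMSO and 47716, 45030 and 44349 in HK3-null ATRA. The HK3-null DMSO libraries were already above every ATRA library of the Cas9 control. The interaction of CYBB was -2.29 ± 0.15 (adjusted p = 4.42e-06). NCF1, the cytosolic subunit p47, had an interaction of -2.09 ± 0.24 (adjusted p = 0.000235). In scaled counts the gain was larger in HK3-null cells, at 37518 against 5861 for CYBB and 10788 against 4364 for NCF1. NCF1 has near-identical pseudogene copies, so its counts may be shared with them. The median interaction of the 10 oxidase genes was -0.072.

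HK3 itself had an interaction of -1.90 ± 0.29 (adjusted p = 0.00144), with a rise of 4.11 log2 units in Cas9 control and 2.20 in HK3-null cells. In ATRA the HK3 libraries of the genotypes overlapped. S100A9 and S100A8, which form calprotectin, began far higher in HK3-null cells. S100A9 stood at 843, 694 and 767 in Cas9 control DMSO, 6521, 6559 and 6560 in Cas9 control ATRA, 15826, 15646 and 15278 in HK3-null DMSO and 39299, 38142 and 39136 in HK3-null ATRA. The groups did not overlap, and the interaction was -1.78 ± 0.09 (adjusted p = 4.22e-07), while that of S100A8 was -1.38 ± 0.09. Of 10 S100 genes tested, 3 were called negative and S100A11 was called positive, beside 3.27% negative and 2.82% positive among all genes tested.

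The upstream sequences of ITGAM, CYBB and HK3 are shown because these genes share the smaller rise and because myeloid promoters often carry binding sites of the transcription factor PU.1. Each run gives the 250 bases before the annotated start on the strand of the gene, from RefSeq on GRCh38.p14, with the PU.1-type core GAGGAA or its reverse complement TTCCTC in capitals. The ITGAM run lies at chr16:31259725-31259974 on the plus strand, CYBB at chrX:37779809-37780058 on the plus strand and HK3 at chr5:176899347-176899596 on the minus strand.
ITGAM: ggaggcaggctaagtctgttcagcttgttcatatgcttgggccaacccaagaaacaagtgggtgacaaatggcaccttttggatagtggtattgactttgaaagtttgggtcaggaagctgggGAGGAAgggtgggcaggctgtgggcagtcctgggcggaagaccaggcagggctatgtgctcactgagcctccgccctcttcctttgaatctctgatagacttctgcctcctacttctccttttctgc
CYBB: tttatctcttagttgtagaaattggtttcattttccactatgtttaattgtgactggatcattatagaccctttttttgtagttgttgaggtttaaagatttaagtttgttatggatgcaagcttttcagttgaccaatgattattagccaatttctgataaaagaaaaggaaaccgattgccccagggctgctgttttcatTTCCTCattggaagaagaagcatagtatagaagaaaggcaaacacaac
HK3: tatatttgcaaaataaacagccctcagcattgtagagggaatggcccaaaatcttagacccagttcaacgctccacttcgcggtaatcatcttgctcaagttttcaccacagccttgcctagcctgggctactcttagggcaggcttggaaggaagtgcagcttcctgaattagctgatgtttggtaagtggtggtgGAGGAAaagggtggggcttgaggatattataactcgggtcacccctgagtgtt
Each of the 3 runs held the core at 1 place. The 250 bases before the start of PHGDH, a gene with a larger fall, held the core at 0 places. Over all 13023 RefSeq promoter windows of 9020 tested genes, 23.6% held it on either strand, against 33.1% of 136 windows of genes with a smaller rise, 27.2% of 301 windows of genes with a larger rise and 25.7% of 280 windows of genes with a larger fall. The half-site of retinoid receptors, AGGTCA or TGACCT, was in 8.75% of all windows, 13.3% of those of genes with a larger rise and 11.03% of those of genes with a smaller rise. Some genes have several windows, these matches are letters and not sites, and the shares were not tested.

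Further genes with a smaller rise were immune receptors and secreted factors. LILRB2, an inhibitory receptor of the LILR family, rose from 5 ± 1 to 373 ± 57.5 and from 44.3 ± 4.16 to 957 ± 158, with an interaction of -1.80 ± 0.27 that shrank to -0.67 with 8 added to the scaled counts and lost its call in 2 of 19 alternatives. OSM, the cytokine oncostatin M, rose from 19.7 ± 4.04 to 82 ± 22.5 in Cas9 control but stood at 28.7 ± 4.93 to 27.7 ± 7.09 in HK3-null cells, and its interaction was -2.11 ± 0.43 (adjusted p = 0.00832). DEFA4, a defensin of azurophil granules, went from 10 ± 3.46 to 97.7 ± 10.5 and from 459 ± 21 to 1572 ± 1. C5AR1, the receptor of complement C5a, went from 10.3 ± 2.31 to 23 ± 1 and from 125 ± 5.29 to 144 ± 10.8, and its interaction of -0.97 ± 0.27 lost its call in 14 of 19 alternatives.

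Called genes with a library at 0 and the highest group means belonged to this class and are given in scaled counts. LILRA5, XK, ADGRE3 and ALS2CL were all at 0 in the 3 Cas9 control DMSO libraries. In HK3-null DMSO, XK stood at 546, 469 and 380 and LILRA5 at 35, 26 and 39. In ATRA, ALS2CL reached 1, 3 and 14 in the control against 765, 878 and 1601 in HK3-null cells. The deposited log2 value for 0 sets the size of their interactions, which changed sign when 8 was added to the scaled counts. In all, 14 of the 685 called genes had a library at 0.

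Among larger rises with counts in every library and a call in every fit without 1 library, the largest interactions were those of CYP27A1, SLC26A11, RGS2, SH3RF3 and PXN. CYP27A1, a mitochondrial sterol hydroxylase, stood at 4, 10 and 11 in Cas9 control DMSO, 6, 16 and 35 in Cas9 control ATRA, 3, 2 and 2 in HK3-null DMSO and 252, 247 and 240 in HK3-null ATRA. Every HK3-null ATRA library was far above all others, and the interaction was 5.77 ± 0.83 (adjusted p = 0.000927). SLC26A11, an anion transporter, went from 3 ± 2.65 to 2.33 ± 1.53 in control and from 12.3 ± 1.53 to 221 ± 51.7 in HK3-null cells. RGS2, a brake on G protein signaling, went from 55.7 ± 31.9 to 53.3 ± 10.97 and from 87 ± 6.24 to 848 ± 132, with an interaction of 3.20 ± 0.46. In the control, the responses of CYP27A1, SLC26A11 and RGS2 did not pass (adjusted p = 0.191, 0.834 and 0.869). SH3RF3, a ubiquitin ligase with SH3 domains, rose in both genotypes, from 52.7 ± 4.16 to 277 ± 53.9 and from 9.33 ± 2.08 to 354 ± 21.7. PXN, the focal adhesion adaptor paxillin, rose from 106 ± 42.3 to 814 ± 77.5 and from 45.7 ± 8.50 to 2473 ± 338, with an interaction of 2.76 ± 0.33 (adjusted p = 0.000313).

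TGM2, tissue transglutaminase, is among the strongest direct ATRA targets in myeloid cells. TGM2 stood at 10, 1 and 2 in Cas9 control DMSO, 801, 946 and 1393 in Cas9 control ATRA, 4, 4 and 12 in HK3-null DMSO and 32339, 30084 and 39244 in HK3-null ATRA. In ATRA every HK3-null library lay far above the highest control library, and the DMSO groups overlapped. The interaction was 3.96 ± 0.97 (adjusted p = 0.0218) and rested on DMSO counts of 1 to 12, and its call was lost in 4 of 19 alternatives. The difference between genotypes in ATRA alone was 5.05 log2 units (adjusted p = 4.67e-05). CEBPB, a transcription factor of the late neutrophil program, rose in both genotypes, from 479.7 ± 56.6 to 3729.7 ± 492 and from 638 ± 123 to 9235 ± 1173, with an interaction of 0.91 ± 0.21 (adjusted p = 0.0157). Of 23 ATRA response genes tested, 3 were called positive and 3 negative, beside 2.82% and 3.27% of all genes tested. In each genotype 19 of the 23 rose with an adjusted p under 0.05. Such a rise was seen for 22.3% of all genes tested in the control and 26.5% in HK3-null cells.

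Of 32 glycolysis and pentose phosphate genes tested, 5 were called positive and 1, HK3, negative, beside 2.82% positive and 3.27% negative among all genes tested. SLC2A5, the fructose transporter GLUT5, stood at 2892, 2670 and 2751 in Cas9 control DMSO, 15789, 16134 and 14650 in Cas9 control ATRA, 1024, 899 and 932 in HK3-null DMSO and 24029, 25996 and 21389 in HK3-null ATRA. It began lower in HK3-null cells and ended higher, with no overlap of groups, and the interaction was 2.16 ± 0.11 (adjusted p = 4.22e-07). PGAM1, PKM and PGD, enzymes of lower glycolysis and of the pentose phosphate branch, had interactions of 0.98, 0.65 and 0.77 (PGAM1, SE 0.08; PKM, SE 0.07; PGD, SE 0.06). PFKM, the muscle-type phosphofructokinase, fell from 1105 ± 79.3 to 603 ± 81.3 in the control and rose from 27 ± 2.65 to 40.3 ± 3.79 in HK3-null cells. The median interaction of the 32 genes was 0.093, beside -0.014 for all genes tested.

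Lysosome genes included a large rise in both genotypes. CTSD, the lysosomal protease cathepsin D, stood at 7713, 6975 and 7689 in Cas9 control DMSO, 27729, 26913 and 30927 in Cas9 control ATRA, 16451, 16068 and 14862 in HK3-null DMSO and 158278, 162525 and 159622 in HK3-null ATRA. Both genotypes rose without overlap, by 1.93 and 3.34 log2 units, and the interaction was 1.41 ± 0.09 (adjusted p = 2.92e-06). Of 50 lysosome and V-ATPase genes tested, 41 had an interaction above 0, as had 48.0% of all genes tested, and the median was 0.26. Among the 50, 4 were called positive and 2 negative, beside 2.82% and 3.27% of all genes tested. LIPA, the lysosomal acid lipase, was called negative, at 1543 ± 47.1 to 1526 ± 27.5 in control and from 824 ± 31.8 to 393 ± 51.5 in HK3-null cells.

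SLC7A11, the cystine importer that feeds glutathione synthesis, went from 1103 ± 322 to 1040 ± 279 in control and from 561 ± 103 to 1870 ± 374 in HK3-null cells, with an interaction of 1.81 ± 0.36 (adjusted p = 0.00797). GLRX, a glutaredoxin, and MSRB1, a methionine sulfoxide reductase, had interactions of 1.07 ± 0.14 and 0.93 ± 0.11. These 3 were the called genes among 39 antioxidant and glutathione genes tested, beside 6.09% called among all genes. FCER1G, the shared signaling chain of Fc receptors, rose from 498 ± 28.1 to 808 ± 67.1 and from 662 ± 12.1 to 2387 ± 145, with an interaction of 1.15 ± 0.11. SIGLEC10, a sialic acid receptor, had an interaction of 1.09 ± 0.20. Of 32 Fc, LILR and SIRP receptor genes, 6 were called positive and 3 negative, beside 2.82% and 3.27% of all genes tested. CCND3 and FOXM1, which serve entry into and passage through the cell cycle, had interactions of 0.59 ± 0.11 and 0.62 ± 0.07, with calls lost in 6 and 1 of 19 alternatives. The linker histone gene HIST1H1C had an interaction of 0.98 ± 0.28, whose call was lost in 13 of 19 alternatives.

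Interferon-stimulated genes split in both directions, with 7 called positive and 5 negative among 38 tested, beside 2.82% and 3.27% of all genes tested. OAS3, a sensor of viral RNA, rose from 521 ± 53.9 to 1556 ± 34.9 in control and from 12 ± 5.29 to 117 ± 17.2 in HK3-null cells, with an interaction of 1.82 ± 0.41 (adjusted p = 0.0146). PSMB9, an immunoproteasome subunit, rose from 511 ± 29.2 to 1698 ± 20.95 and from 50.3 ± 4.04 to 421 ± 29.7, with an interaction of 1.33 ± 0.13. Both began and ended lower in HK3-null cells although their rise was larger there on the log2 scale. In scaled counts the gain was smaller in HK3-null cells, at 105 against 1035 for OAS3 and 370.3 against 1187 for PSMB9. IFIT1, which binds foreign mRNA ends, went the other way. IFIT1 stood at 89 ± 9.85 to 99.3 ± 17.6 in control and fell from 9.67 ± 3.79 to 1.33 ± 0.577 in HK3-null cells, with an interaction of -3.02 ± 0.53 (adjusted p = 0.00334) that rests on counts of 1 to 14 in HK3-null cells.

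Among larger falls, IRF8, a transcription factor that favors monocytes over neutrophils, had the largest interaction of the class among genes with counts in every library. IRF8 stood at 106, 86 and 103 in Cas9 control DMSO, 110, 98 and 111 in Cas9 control ATRA, 270, 261 and 300 in HK3-null DMSO and 28, 17 and 48 in HK3-null ATRA. The control groups overlapped, whereas the HK3-null ATRA libraries lay below all others. The interaction was -3.40 ± 0.41 (adjusted p = 0.000309). PLD4, a phospholipase family member of endolysosomes, and MS4A6A, a membrane protein of myeloid cells, also fell from a higher start in HK3-null cells. Unlike IRF8, PLD4 overlapped the control in ATRA and MS4A6A stayed above it. PLD4 stood at 33 ± 4.58 to 49.3 ± 3.79 in control and fell from 234 ± 25.3 to 39 ± 13.5 in HK3-null cells, and MS4A6A stood at 6.67 ± 1.15 to 8.33 ± 2.52 and fell from 149.7 ± 10.02 to 23 ± 7.94. ADGRB1, an adhesion receptor that recognizes phosphatidylserine, stood at 1087 ± 79.3 to 781 ± 166 in the control and fell from 201 ± 47.04 to 19.7 ± 5.86, with an interaction of -2.89 ± 0.34. The B lineage gene IGLL1 fell from 1712 ± 112 to 196 ± 36.5 and from 445 ± 5.13 to 24 ± 3.61. It was the called gene among 5 T and B cell markers tested, beside 6.09% called among all genes tested. In scaled counts ADGRB1 and IGLL1 changed less in HK3-null cells, at -182 against -306 and -421 against -1516, unlike IRF8, PLD4 and MS4A6A.

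Among larger falls were 3 genes of amino acid synthesis. PHGDH, the enzyme that commits glycolytic carbon to serine synthesis, stood at 8908, 8558 and 8670 in Cas9 control DMSO, 6214, 5605 and 5623 in Cas9 control ATRA, 1617, 1396 and 1294 in HK3-null DMSO and 233, 211 and 178 in HK3-null ATRA. Each HK3-null library was below every control library, in DMSO as in ATRA. The interaction was -2.21 ± 0.14 (adjusted p = 3.26e-06). GPT2, which makes alanine in mitochondria, fell from 3742 ± 143 to 1104 ± 70.2 and from 1346 ± 36.02 to 155 ± 31.5, with an interaction of -1.37 ± 0.17. In scaled counts the change was smaller in HK3-null cells, at -1228 against -2898 for PHGDH and -1190 against -2638 for GPT2. ASNS, asparagine synthetase, had an interaction of -0.77 (SE 0.22, adjusted p = 0.0441 by limma). Of 38 integrated stress response genes tested, 2 were called positive and 3 negative, beside 2.82% and 3.27% of all genes tested. The 3 were PHGDH, GPT2 and ASNS, and the median of the 38 was -0.056.

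MYC, the driver of ribosome building, stood at 51419, 42067 and 50378 in Cas9 control DMSO, 12073, 9654 and 12796 in Cas9 control ATRA, 54095, 45237 and 51576 in HK3-null DMSO and 7575, 5403 and 7202 in HK3-null ATRA. The DMSO groups overlapped and the ATRA groups did not, and the interaction was -0.85 ± 0.20 (adjusted p = 0.0174). It was the called gene among 41 of the MYC network and ribosome biogenesis, beside 6.09% called among all genes tested. Of the 41, 32 fell in the control and 35 in HK3-null cells with an adjusted p under 0.05, against 24.8% and 28.3% of all genes tested. The median interaction of the 41 was -0.26, and 6 lay above 0, as did 48.0% of all genes tested. Other larger falls were those of TNFSF13B, the B cell factor BAFF, with an interaction of -0.69 ± 0.15, of the small heat shock gene HSPB1 at -0.67 ± 0.16 and of TFR2, a transferrin receptor, at -0.87 ± 0.22, and the calls were lost in 1, 3 and 6 of 19 alternatives.

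**Figure D3:**
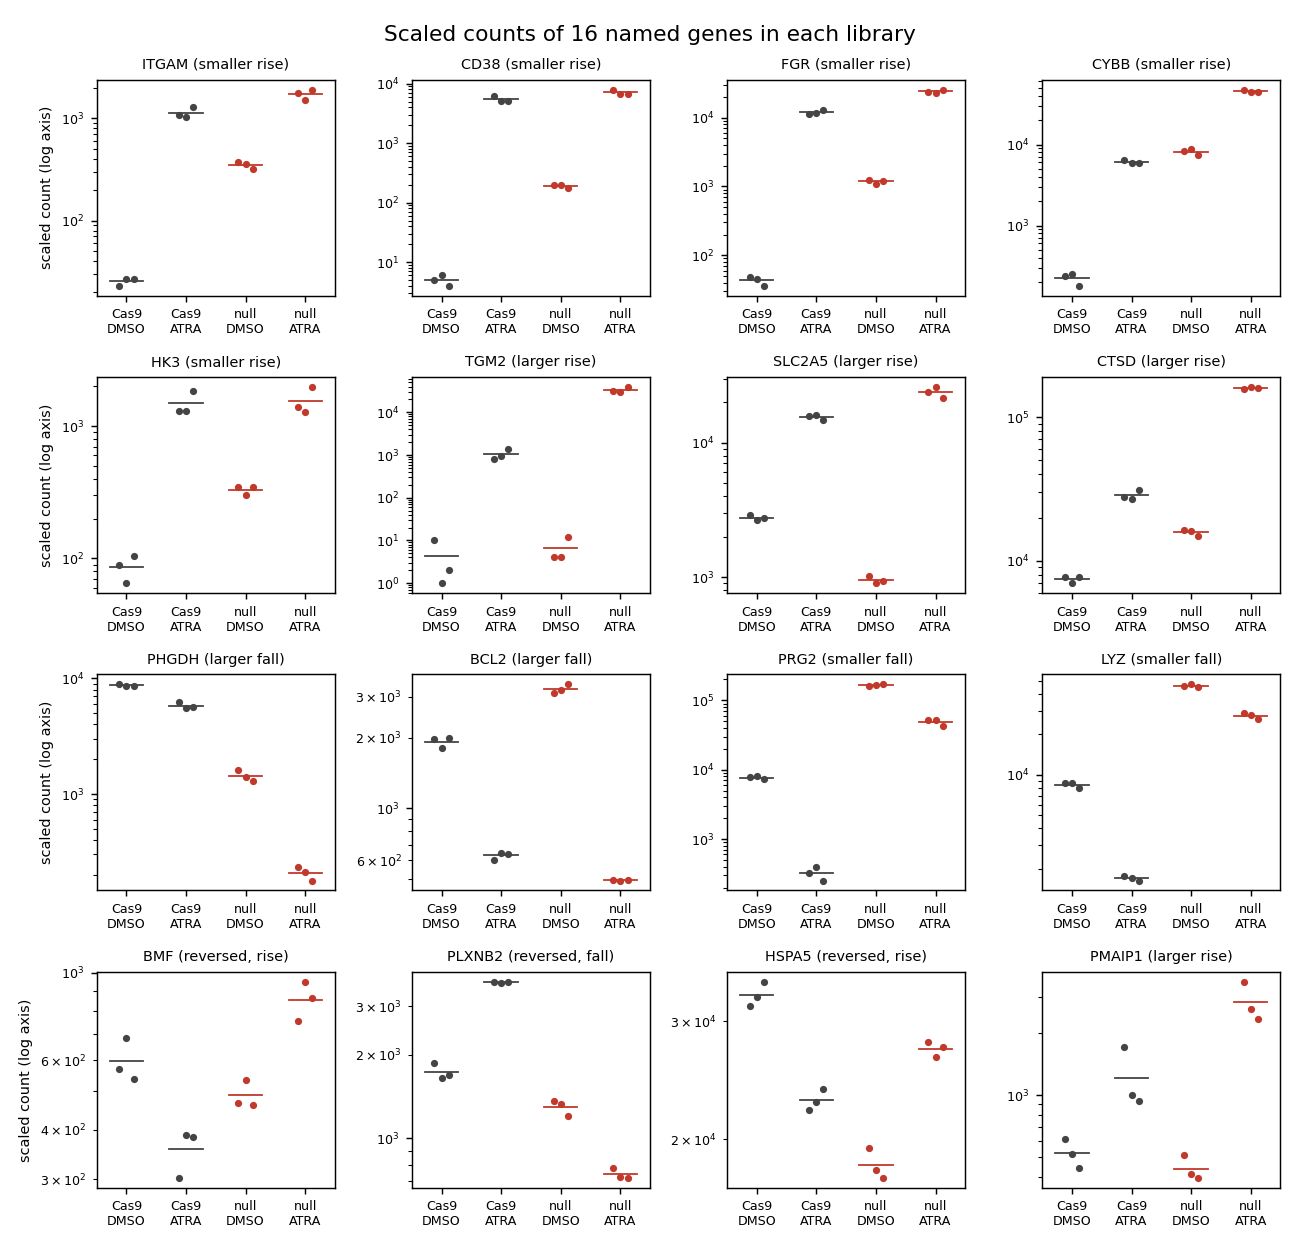
Scaled counts on log axes of 16 named genes in each of the 12 RNAseq libraries, with Cas9 control in gray, HK3-null in red and a bar at the mean of 3 libraries. ITGAM, CD38, FGR and CYBB start higher in HK3-null cells, PHGDH and BCL2 end lowest in HK3-null ATRA, and BMF and HSPA5 move in opposite directions in the genotypes.

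BCL2, the prosurvival gene that names its family and lies at chr18:63123346-63320090 on GRCh38, stood at 1980, 1801 and 1989 in Cas9 control DMSO, 604, 646 and 639 in Cas9 control ATRA, 3101, 3214 and 3384 in HK3-null DMSO and 492, 491 and 496 in HK3-null ATRA. HK3-null libraries were higher than control libraries in DMSO and lower in ATRA, with no overlap. BCL2 fell by 1.61 log2 units in the control and by 2.71 in HK3-null cells, and the interaction was -1.10 ± 0.09 (adjusted p = 1.35e-05). BCL2A1, an ATRA-induced prosurvival relative, rose less in HK3-null cells on the log2 scale, from 10 ± 0 to 172 ± 19.2 and from 74 ± 5.57 to 544 ± 18.6. Its interaction of -1.22 ± 0.19 shrank to -0.57 with 8 added to the scaled counts and lost its call in 2 of 19 alternatives. In scaled counts the gain of BCL2A1 was larger in HK3-null cells, at 470 against 162. BCL2 and BCL2A1 were the called genes among 7 prosurvival and effector genes tested, beside 6.09% called among all genes. MCL1, BCL2L1, BCL2L2, BAX and BAK1 had interactions of 0.22, 0.23, 0.20, 0.09 and -0.25, none of which passed.

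Among 10 BH3-only genes tested, PMAIP1 and BMF were called positive and BIK negative, beside 2.82% positive and 3.27% negative among all genes tested. BMF, at chr15:40087890-40108879, relays loss of anchorage and cytoskeletal stress to BCL2. Its scaled counts were 571, 684 and 539 in Cas9 control DMSO, 302, 387 and 384 in Cas9 control ATRA, 468, 536 and 462 in HK3-null DMSO and 752, 948 and 862 in HK3-null ATRA. It fell in the control by 0.74 log2 units and rose in HK3-null cells by 0.80, with no overlap of the ATRA groups. The interaction was 1.55 ± 0.18 (adjusted p = 0.000297). PMAIP1, at chr18:59899996-59904305, counters MCL1. Its scaled counts were 613, 518 and 443 in Cas9 control DMSO, 1715, 998 and 938 in Cas9 control ATRA, 509, 411 and 395 in HK3-null DMSO and 3563, 2614 and 2356 in HK3-null ATRA. All HK3-null ATRA libraries exceeded all control ATRA libraries, and the interaction was 1.51 ± 0.32 (adjusted p = 0.0105).

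BIK, a BH3-only protein of the endoplasmic reticulum, stood at 116 ± 12.3 to 91.3 ± 26.5 in control and fell from 139 ± 25.7 to 40 ± 14.9 in HK3-null cells. Its interaction of -1.45 ± 0.40 (adjusted p = 0.0398) lost its call in 11 of 19 alternatives. The other 7 BH3-only genes did not pass: interactions were 0.24 for BCL2L11 (BIM), -0.16 for BBC3 (PUMA), 0.13 for BID, 0.25 for BAD, 0.36 for BNIP3, 0.08 for BNIP3L and 0.16 for BECN1. For BCL2L11 the SE was 0.31 and for BBC3 0.56. In the list of 30 death receptors and caspases, 3 genes were called, CFLAR and TNFRSF10D among them. Each had a more upward response in HK3-null cells, a call made for 2.82% of all genes tested. CFLAR, which restrains caspase 8, had an interaction of 0.60 ± 0.09, whose call was lost in 5 of 19 alternatives, and TNFRSF10D, a decoy receptor of TRAIL, one of 1.58 ± 0.27. Of 23 p53 targets tested, PMAIP1, TIGAR and GADD45B were called positive, as were 2.82% of all genes tested. Their interactions were 1.51 ± 0.32, 0.91 ± 0.18 and 0.91 ± 0.24, the last losing its call in 9 of 19 alternatives.

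Among smaller falls, PRG2, the major basic protein of eosinophil granules, stood at 7754, 8164 and 7250 in Cas9 control DMSO, 329, 391 and 252 in Cas9 control ATRA, 162637, 165159 and 170475 in HK3-null DMSO and 51351, 51426 and 42445 in HK3-null ATRA. HK3-null libraries were far above control libraries in either treatment and fell less far on the log2 scale. The interaction was 2.81 ± 0.18 (adjusted p = 3.45e-06). LYZ, lysozyme, stood at 8687, 8668 and 7998 in Cas9 control DMSO, 1778, 1691 and 1630 in Cas9 control ATRA, 45925, 47014 and 45149 in HK3-null DMSO and 28965, 27895 and 25743 in HK3-null ATRA. It fell by 2.31 log2 units in the control and 0.74 in HK3-null cells, with an interaction of 1.57 ± 0.08 (adjusted p = 4.22e-07). In scaled counts the change was larger in HK3-null cells, at -117683 against -7399 for PRG2 and -18495 against -6751 for LYZ. RNASE3 and RNASE2, the cationic and neurotoxin ribonucleases of eosinophils, had interactions of 1.64 ± 0.23 and 1.07 ± 0.08, and RNASE2 fell in the control while it rose slightly in HK3-null cells.

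Of 8 eosinophil markers tested, 3 were called, PRG2, RNASE2 and RNASE3, all positive, as were 2.82% of all genes tested. The summed scaled count of 14 eosinophil markers was 14132 to 14474 in Cas9 control DMSO, 12711 to 14837 in Cas9 control ATRA, 173179 to 181066 in HK3-null DMSO and 64533 to 73718 in HK3-null ATRA. PRG2 made up most of that sum in HK3-null cells but not in Cas9 control ATRA, and 6 of the 14 markers stayed under a mean of 50 in every group. For 20 monocyte and macrophage markers the sums were 8266 to 9079, 3054 to 3373, 47284 to 49046 and 33697 to 35935 in the same order, LYZ being the main contributor. In RNA of whole cultures of a cell line, more cells expressing a gene and more RNA per cell cannot be told apart. Of 17 azurophil granule genes tested, 5 were called positive and 2 negative, and of 18 specific and gelatinase granule genes 1 in each direction. The shares over all genes tested were 2.82% positive and 3.27% negative.

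ANXA3, an annexin of neutrophil granules, fell from 57.7 ± 14.01 to 9.67 ± 2.52 in the control and stood at 212 ± 21.6 to 221 ± 20.7 in HK3-null cells, with an interaction of 2.64 ± 0.33 (adjusted p = 0.000365). CDA, cytidine deaminase, fell from 53 ± 7 to 14 ± 4.58 and stood at 150 ± 7.55 to 169 ± 9.29. GSAP, which binds gamma-secretase, and PHACTR3, a phosphatase regulator, had interactions of 2.13 ± 0.39 and 2.09 ± 0.34. In scaled counts GSAP changed more in HK3-null cells, at -69.3 against -27.7. PHACTR3, like RNASE3, began lower in HK3-null than in control DMSO libraries.

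Reversed genes were few, and the list of 33 that rose in HK3-null cells holds the BMF gene already described. HSPA5, the main chaperone of the endoplasmic reticulum, stood at 31564, 32576 and 34369 in Cas9 control DMSO, 22090, 22749 and 23815 in Cas9 control ATRA, 19418, 17981 and 17523 in HK3-null DMSO and 27924, 26573 and 27459 in HK3-null ATRA. All 4 groups were separate, and ATRA brought the genotypes closer, with an interaction of 1.10 ± 0.08 (adjusted p = 4.97e-06). Of 28 unfolded protein and heat shock genes tested, 3 were called positive, CRELD2 and SDF2L1 being the others, and HSPB1 was negative. Among all genes tested the shares were 2.82% positive and 3.27% negative. FPR2, a formyl peptide receptor of neutrophils, went from 308 ± 39.3 to 146 ± 20.03 in control and from 502 ± 47.01 to 875 ± 135 in HK3-null cells, with an interaction of 1.87 ± 0.20 (adjusted p = 0.000165). CCND2, a D-type cyclin, fell from 5051 ± 631 to 3616 ± 704 and rose from 132 ± 11.8 to 215 ± 14.4, with an interaction of 1.20 ± 0.20.

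The 5 reversed genes with the largest positive interactions were ARHGEF3, HAL, VAV2, SLC43A2 and SERPINB2. ARHGEF3, an activator of small GTPases, fell from 4.33 ± 0.577 to 2 ± 1 in control and rose from 21 ± 1 to 138 ± 25.9 in HK3-null cells. Its fall in the control rested on counts of 1 to 5. HAL, which degrades histidine, fell from 209 ± 13.5 to 51.3 ± 6.66 and rose from 118 ± 22.9 to 170.3 ± 7.57, with an interaction of 2.58 ± 0.23 (adjusted p = 3.22e-05). VAV2, another exchange factor, stood at 67, 20 and 21 in Cas9 control DMSO and at 10, 14 and 15 in Cas9 control ATRA. It rose from 60.7 ± 3.51 to 133 ± 3.51 in HK3-null cells, with an interaction of 2.38 ± 0.55. SLC43A2, an amino acid transporter, fell from 731 ± 132 to 423 ± 75.1 and rose from 119 ± 24.9 to 334 ± 28.02, ending at overlapping levels. SERPINB2, the plasminogen activator inhibitor PAI-2, fell from 53 ± 15.9 to 26.7 ± 2.08 and rose from 1215 ± 105 to 2582 ± 305, with an interaction of 2.04 ± 0.25.

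In the opposite reversal, PLXNB2, a semaphorin receptor, stood at 1865, 1651 and 1699 in Cas9 control DMSO, 3669, 3635 and 3672 in Cas9 control ATRA, 1362, 1327 and 1202 in HK3-null DMSO and 784, 727 and 720 in HK3-null ATRA. Its 4 groups did not overlap, and the interaction was -1.88 ± 0.09 (adjusted p = 4.22e-07). PDZD7, a scaffold protein, rose from 34 ± 10.8 to 195 ± 9 in control and fell from 261 ± 31.6 to 167 ± 13.1 in HK3-null cells. XAF1, an interferon-induced antagonist of XIAP, rose from 3.33 ± 1.15 to 9.33 ± 3.06 in control and fell from 154 ± 10.5 to 59 ± 8.66 in HK3-null cells. KREMEN2, a WNT pathway receptor, and NTNG2, a netrin relative, had interactions of -2.0 ± 0.39 and -1.59 ± 0.13. CEACAM6, a granulocyte adhesion protein, rose from 98 ± 11.1 to 167 ± 46.2 and fell from 1178 ± 56.1 to 774 ± 43.7, and STAT5A, a cytokine signal transducer, rose from 245 ± 25.6 to 410.3 ± 20.1 and fell from 449 ± 72.6 to 315 ± 43.8. S100A4, a calcium-binding protein of motile cells, had an interaction of -0.89 ± 0.09.

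Across the 36 lists, no called gene was found among 50 DNA replication, 50 oxidative phosphorylation, 48 cytosolic ribosomal protein, 42 double-strand break repair, 32 cholesterol synthesis, 23 NF-κB pathway and 2 HLA class II genes tested. Their median interactions were 0.060, -0.029, -0.023, -0.022, 0.049, 0.067 and -0.49 in that order. Single members still differed, from -0.52 to 0.56 in DNA replication and from -0.23 to 1.36 in the NF-κB pathway. Cytosolic ribosomal protein genes ran from -0.21 to 0.18. For the 55 mitosis and G2/M genes, FOXM1 was called and the median was 0.13. Of their interactions 47 were above 0, as were 48.0% of those of all genes tested. Of 19 HLA class I presentation genes, PSMB9 was called, and of 18 chemokines and cytokines 2, both negative. The 18 chemoattractant receptors had 3 in each direction and a median of -0.51. Of 40 myeloid transcription factors, 3 were called positive, CEBPB and ETS2 among them, and IRF8 and STAT5A negative. Beside these lists, 2.82% of all genes tested were called positive and 3.27% negative.

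**Figure D4:**
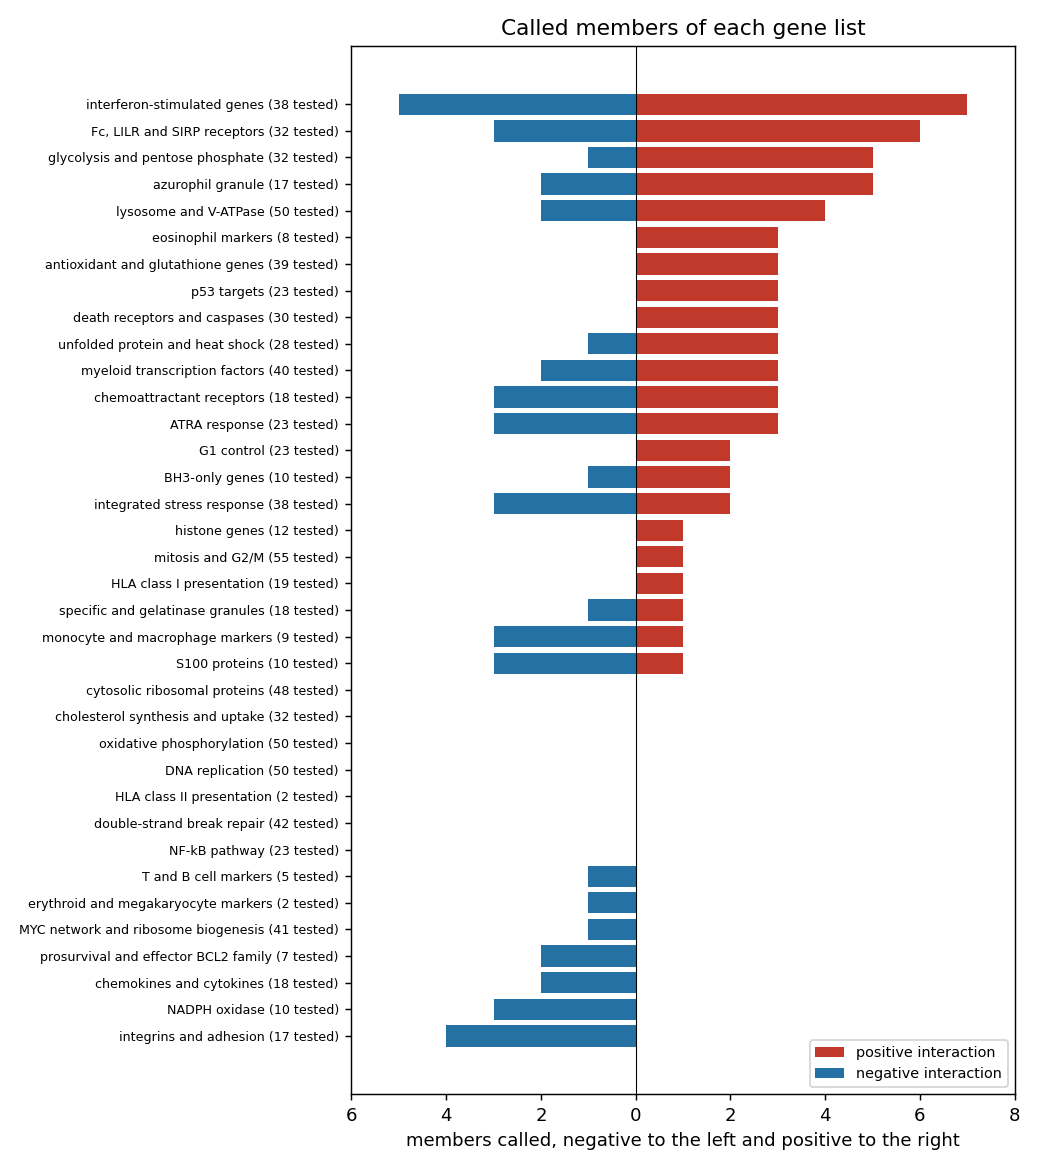
Number of called members of each of 36 gene lists, with positive interactions to the right and negative to the left, and the number of members tested in brackets. Integrin and NADPH oxidase genes have calls on the negative side alone, interferon-stimulated genes on both, and 7 lists have none. Over all genes tested, 2.82% were called positive and 3.27% negative.

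Called genes were spread over the chromosomes. For 11100 genes matched to RefSeq positions on GRCh38, the called share ran from 4.10% on chromosome 14 to 8.41% on chromosome 10, and the median interaction from -0.046 on chromosome 4 to 0.037 on chromosome 20. In DMSO the median HK3-null minus Cas9 control difference was 1.08 log2 units on chromosome 8, 0.56 on chromosome 6, -0.94 on chromosome 15, -0.74 on chromosome 5 and -0.58 on chromosome 13. On these 5 chromosomes the median interaction lay between -0.039 and -0.0072, and they held 16.8% of called and 17.7% of tested genes.

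**Figure D5:**
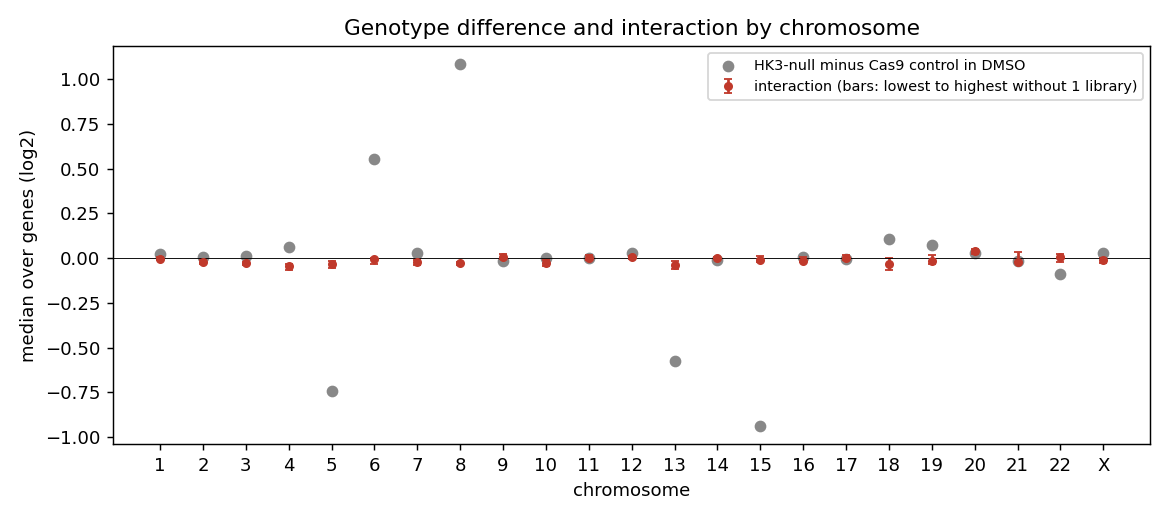
Median over genes of each chromosome, on the log2 scale, of the genotype difference in DMSO (gray) and of the interaction (red, with bars from the lowest to the highest value without 1 library). Chromosomes 5, 6, 8, 13 and 15 stand off 0 in gray, whereas all red medians lie between -0.046 and 0.037.

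ATACseq regions annotated to 46 of the 100 named genes give the chromatin signal beside these results. All 8286 deposited regions differed by at least 1.65-fold between the genotypes in ATRA, so they were selected on that contrast, and the values are given with no test. A region was annotated to 269 of the 685 called genes (39.3%) and to 24.5% of the genes tested. In the CYP27A1 region at chr2:218811339-218811818 the signal was 28.5 and 21.9 in HK3-null DMSO and 162 and 164 in HK3-null ATRA, against 15.8 and 21.8 in control DMSO and 22.9 and 12.3 in control ATRA. A region of SLC2A5 at chr1:9077930-9078428 went from 10.3 and 15.5 to 138 and 190 in HK3-null cells and from 14.3 and 23.6 to 82.7 and 70.5 in the control. At TGM2, the region chr20:38132517-38132967 held 45.9 and 40.2 in HK3-null ATRA and at most 2.79 in any other library. Among other genes with a larger rise, regions of CTSD, PXN and CEBPB also gained more signal with ATRA in HK3-null than in control cells. Those of CCND3 and SH3RF3 went in both directions in HK3-null cells, and those of GLRX and CFLAR lost signal there. The GLRX region chr5:95808657-95809170 went from 115 and 106 to 85.2 and 88.3 in HK3-null cells. GLRX lies on chromosome 5, where the median HK3-null minus Cas9 control RNA difference in DMSO was -0.74 log2 units.

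At PHGDH and IRF8, whose fall was larger in HK3-null cells, the signal was lower there in both treatments. The PHGDH region chr1:119711688-119712269, which covers the annotated start, held 90.5 and 110 in control DMSO, 112 and 78.4 in control ATRA, 43 and 32.9 in HK3-null DMSO and 28.1 and 16.3 in HK3-null ATRA. At IRF8, chr16:85913847-85914441 held 37.2 and 46.7 in control DMSO, 35.8 and 23.1 in control ATRA, 9.79 and 5.89 in HK3-null DMSO and 3.18 and 3.47 in HK3-null ATRA. IRF8 mRNA in DMSO was nevertheless higher in HK3-null cells, at a mean of 277 against 98.3. Regions of LIPA, BIK, BCL2 and TNFSF13B were lower in HK3-null cells too, whereas those of MS4A6A and HSPB1 were higher in both treatments. At ADGRB1, on chromosome 8 with its median RNA difference of 1.08 log2 units in DMSO, chr8:142447474-142447879 was higher as well. It went from 48.3 and 33.1 to 65.7 and 37.3 in HK3-null cells. BMF mRNA rose in HK3-null ATRA, while its 4 regions held less signal there than in control ATRA. These regions also held less signal in HK3-null than in control DMSO. BMF lies on chromosome 15, where the median HK3-null minus Cas9 control RNA difference in DMSO was -0.94 log2 units. The region of BMF at chr15:40106560-40107156 held 186 and 193 in control DMSO and 151 and 104 in control ATRA. In HK3-null cells it held 89.7 and 86.2 in DMSO and 55.7 and 50.7 in ATRA. CYBB at chrX:37781699-37782196 held 34.1 and 21 in control ATRA and 48.6 and 76.8 in HK3-null ATRA. No region was annotated to ITGAM, CD38, FGR, HK3, PMAIP1 or PRG2.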

How the data were processed

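RNA from HL60 cells of 4 groups with 3 libraries each was sequenced as directional paired-end reads, which the authors mapped to GRCh38. The deposited values are log2 scaled counts per gene, with 0 written as the log2 of 0.001. The methods describe RPKM, but the deposited log2 values return whole numbers, which RPKM would not, and the submitters' processing notes name DESeq2, so they are called scaled counts here. Raw counts were not used here, and count models were therefore not run. Unnamed rows, at most 0.00926% of a library's total, were left out. The authors deposited ATACseq signal as fragment density over merged MACS2 regions with all libraries reduced to equal tag numbers, and its depth is unknown.

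A limma 3.58.1 fit (R 4.3.3, 1 mean per group, eBayes with trend) of the 12 libraries tested 11252 genes, with two-sided p-values adjusted by Benjamini-Hochberg over all of them. A gene was called at an adjusted p under 0.05 and an interaction of at least 1.5-fold. Responses within a genotype passed at an adjusted p under 0.05. The script was tested on simulated data. The study's two-way ANOVA is close to this design. All comparisons share libraries, so the responses are given side by side.

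Named genes were the BCL2 family and BH3-only genes with ITGAM and HK3, the 5 largest interactions per class among genes with counts in every library and a call in all fits without 1 library, up to 3 called members of each of 36 lists, and genes with a library at 0. A few other list members are named where a count of 5 or fewer includes them, and genes known by a locus number are counted and not described. A few further named genes are not reported here. The members and lists were chosen with earlier results of these data known. Promoter windows and gene positions come from RefSeq on GRCh38.p14. Alternatives were other pseudocounts, filters, scalings, thresholds, a replicate block and leaving out each library.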

Additional observations from a re-analysis of the deposited data

Results flagged for a closer look

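The ATRA response differed between HK3-null and Cas9 control cells, by the test of that difference itself in limma, in 685 genes. The named genes among them, without a library at 0, are given here by class with their interactions on the log2 scale, and their errors stand above.

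Among genes with a larger rise, the interaction was 5.77 for CYP27A1, 4.34 for SLC26A11, 3.96 for TGM2, 3.20 for RGS2, 2.89 for SH3RF3 and 2.76 for PXN. Next came 2.16 for SLC2A5, 1.82 for OAS3, 1.81 for SLC7A11, 1.51 for PMAIP1, 1.41 for CTSD and 1.33 for PSMB9. Then came 1.15 for FCER1G, 1.09 for SIGLEC10, 1.07 for GLRX, 0.98 for HIST1H1C and 0.93 for MSRB1. Further values were 0.91 for CEBPB, 0.62 for FOXM1, 0.60 for CFLAR and 0.59 for CCND3.

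Among genes with a larger fall, the interaction was -3.40 for IRF8, -3.22 for PLD4, -3.06 for MS4A6A, -3.02 for IFIT1, -2.89 for ADGRB1 and -2.21 for PHGDH. Next came -1.45 for BIK, -1.37 for GPT2, -1.10 for BCL2, -1.08 for IGLL1, -1.06 for LIPA and -0.87 for TFR2. Then came -0.85 for MYC, -0.69 for TNFSF13B and -0.67 for HSPB1.

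Among genes with a smaller rise, the interaction was -4.89 for CD38, -3.77 for FGR, -3.72 for P2RY13, -3.52 for TFAP2A-AS1, -3.29 for ITGAX and -3.15 for ITGAM. Next came -2.83 for ICAM1, -2.53 for CSF1R, -2.29 for CYBB, -2.11 for OSM, -2.09 for NCF1 and -1.90 for HK3. Then came -1.80 for LILRB2, -1.78 for S100A9, -1.58 for DEFA4, -1.38 for S100A8, -1.22 for BCL2A1 and -0.97 for C5AR1.

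Among genes with a smaller fall, the interaction was 2.81 for PRG2, 2.64 for ANXA3, 2.13 for CDA, 2.13 for GSAP, 2.09 for PHACTR3 and 1.64 for RNASE3. Next came 1.57 for LYZ, 0.91 for GADD45B and 0.70 for CRELD2.

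Among genes with a fall in the control and a rise in HK3-null cells, the interaction was 3.94 for ARHGEF3, 2.58 for HAL, 2.38 for VAV2, 2.30 for SLC43A2, 2.04 for SERPINB2 and 1.87 for FPR2. Next came 1.58 for TNFRSF10D, 1.55 for BMF, 1.46 for PFKM, 1.20 for CCND2, 1.10 for HSPA5 and 1.07 for RNASE2. Then came 0.91 for TIGAR.

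Among genes with a rise in the control and a fall in HK3-null cells, the interaction was -3.21 for PDZD7, -2.89 for XAF1, -2.0 for KREMEN2, -1.88 for PLXNB2, -1.59 for NTNG2 and -1.35 for CEACAM6. Next came -1.26 for STAT5A and -0.89 for S100A4.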

How the results depend on the processing

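Of the 88 called genes named, 69 kept the call and its direction in all of the refits run, and the interaction of every named gene without a library at 0 kept its sign. With 8 added to the scaled counts the interaction turned positive for ADGRE3 (1.38), ALS2CL (4.53), LILRA5 (0.0504) and XK (0.25), and with 1 added for ALS2CL (3.35), because the deposited value for 0 sets their size. Fits without 1 library called 589 to 701 genes. The pseudocounts called 730 and 822 genes, quantile normalization 825, a group mean log2 above 3 as the filter 703, no filter 739 and no variance trend 703.

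Other thresholds moved the counts by construction. Without a fold threshold 1224 genes were called, 590 positive and 634 negative, with 423 larger rises, 436 larger falls, 116 smaller falls and 50 reversed rises. At 2-fold they were 332, 142 and 190, with 93 larger rises, 100 larger falls, 75 smaller rises, 26 smaller falls and 15 reversed falls. With unadjusted p the negative calls were 556 and the smaller rises 184. Quantile normalization gave 87 smaller falls. The scaled count scale, added after seeing the data, kept the direction in 49 of the 115 smaller rises.

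With the replicate number as a block, 968 genes were called, all 685 among them, with 183 smaller rises and 61 and 45 reversed genes. Whether numbers pair the libraries depended on the genes used: same-numbered libraries of different groups correlated in their deviations at 0.073 to 0.59 over 10998 genes and at 0.23 to 0.64 over 10551 genes with a mean of 50 or more, and all 12 libraries correlated best with their own number, which is a hint from the data and not from the labels. Scaling has removed the raw depth, so counting error of low genes is not known.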

Other observations

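Called interactions were spread over the range of expression. By the mean DMSO level of both genotypes, 8.80% of 761 genes under 50 scaled counts were called, 8.09% of 1558 genes from 50 to 200, 8.26% of 3414 genes from 200 to 1000, 3.90% of 4363 genes from 1000 to 5000 and 3.46% of 1156 genes above that. The median SE of the interaction went from 0.51 in the lowest to 0.097 in the highest of these ranges, and the median absolute interaction from 0.65 to 0.13.

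Several called list members were not among the genes chosen for full description. BPI, a bactericidal granule protein, rose from a mean of 98.3 to 866 in Cas9 control and from 6242 to 23158 in HK3-null cells, with an interaction of -1.26. CD52, a surface glycoprotein, rose from 20 to 101 and from 173 to 308. CXCR4, the receptor that holds myeloid cells in the marrow, rose from 3166 to 4302 and from 3553 to 9284, with an interaction of 0.95. SRGN, serglycin of granule matrix, stood at 66088 and 64158 in the control and rose from 74308 in HK3-null cells, with an interaction of 0.79. The genes called without a passing response in either genotype were METAP1D and DRAM1, with interactions of -0.75 and -0.67.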
